A study of Mus musculus with 6 samples.

Results

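Embryonic globins and other genes of red blood cells were examined in cultures grown from mouse embryonic stem cells (ESCs). The 8 genes were Hbb-bh1, Hbb-y and Hba-x, which encode embryonic globin chains, the transcription factor gene Klf1, the haem synthesis gene Alas2, the membrane transporter gene Slc4a1 and the carbonic anhydrase genes Car1 and Car2. They were chosen by symbol, as probe sets annotated to 1 of these genes alone, and of several probe sets the one brightest on average stands for the gene, with the others shown. All 8 genes were measured well enough to be tested, among 10302 genes tested in all. They were covered by 14 probe sets, of which 13 were tested.

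The cells of 3 arrays carried 1 disrupted copy of Gata3, written Gata3+/-, and those of the other 3 lacked an intact copy, written Gata3-/-. GATA3 is a zinc finger transcription factor of T-cell development. The sources used here describe the same handling for both groups. ESCs of each genotype were differentiated on OP9 and OP9-DL1 cells, bone marrow stromal lines of which the latter presents a Notch ligand, in the presence of the cytokines Flt3L and IL-7, and cells called T-cell progenitors were sorted by flow cytometry. The sources used here describe no wild-type culture and do not give the disrupted part of Gata3, the number of stem cell clones per genotype or the markers of the sort. The labels call the arrays of a genotype biological replicates without naming separate cultures, so p-values cover the spread among these arrays, which may be technical.

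Primitive red cells are the first blood cells of the mouse embryo. They arise in the yolk sac and load their haemoglobin with embryonic chains, zeta-globin from Hba-x and the beta-like chains epsilon-y from Hbb-y and beta-h1 from Hbb-bh1, before fetal liver and bone marrow make definitive red cells with adult globins. KLF1 and GATA1 are the main activators of globin and other red cell genes, and KLF1 binds CACCC boxes in their promoters. Primitive erythroid cells, definitive erythroid progenitors and myeloid cells can all arise in ESC cultures on OP9 stroma, and the RNA of each array came from many sorted cells together. In such bulk samples, fewer cells of a type and less RNA per cell cannot be told apart.

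Promoter sequences were available for 4 of the 8 genes, Hbb-y, Hba-x, Klf1 and Alas2, in a RefSeq table of assembly GRCm38.p6. Those of the embryonic globin genes Hbb-y and Hba-x, whose levels followed each other over the arrays, are shown with that of Klf1, whose levels went the other way. Each runs 5′ to 3′ on the gene's strand and holds the 250 bases before the annotated start, at chr7:103853208-103853457 on the minus strand for Hbb-y, chr11:32276350-32276599 on the plus strand for Hba-x and chr8:84901732-84901981 on the plus strand for Klf1. Capitals mark matches, on either strand, to a GATA hexamer (A or T, then GATA, then A or G), to the CACCC box, to CCAAT or to ATAAA.
Hbb-y: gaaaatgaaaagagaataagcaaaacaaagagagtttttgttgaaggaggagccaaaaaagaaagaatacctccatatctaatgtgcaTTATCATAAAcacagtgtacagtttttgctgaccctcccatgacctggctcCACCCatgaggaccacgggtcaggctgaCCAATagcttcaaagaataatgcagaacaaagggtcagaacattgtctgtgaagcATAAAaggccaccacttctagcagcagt
Hba-x: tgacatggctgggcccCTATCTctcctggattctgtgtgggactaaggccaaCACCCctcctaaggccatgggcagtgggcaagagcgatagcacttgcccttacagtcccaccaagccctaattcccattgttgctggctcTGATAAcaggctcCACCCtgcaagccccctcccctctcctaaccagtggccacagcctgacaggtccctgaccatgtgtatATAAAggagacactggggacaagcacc
Klf1: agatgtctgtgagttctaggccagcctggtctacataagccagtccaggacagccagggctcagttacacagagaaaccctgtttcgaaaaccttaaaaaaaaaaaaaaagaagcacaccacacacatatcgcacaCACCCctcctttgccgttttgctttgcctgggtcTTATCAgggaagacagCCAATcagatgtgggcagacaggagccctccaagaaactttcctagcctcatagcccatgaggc

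A GATA hexamer and a CACCC box stood in all 4 of the promoter windows. In Hbb-y the GATA hexamer lay 162 to 157 bases before the start and the CACCC box 111 to 107 bases before it. Hba-x held 2 of each, with the nearer GATA hexamer at 108 to 103 bases and the nearer CACCC box at 95 to 91 bases. In Klf1 the GATA hexamer lay at 80 to 75 bases and the CACCC box at 114 to 110 bases. Alas2 held 1 GATA hexamer, at 86 to 81 bases, and 3 adjoining CACCC boxes on the minus strand between 40 and 26 bases. CCAAT was found in 2 of the 4 windows, those of Hbb-y and Klf1, and ATAAA in 3, where it ended 24 and 23 bases before the start of Hbb-y and Hba-x. In Hbb-y and Alas2 a GATA hexamer overlaps an ATAAA match. Over 32851 promoter windows of the same length in the table, 26.5% held a GATA hexamer, 52% CACCC, 33.8% CCAAT and 37.3% ATAAA. A match is a run of letters and was not measured as a binding site.

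None of the 8 genes differed between the genotypes in limma, with an adjusted p under 0.05 as the threshold. Over all genes tested 5.27% passed it, with 2.86% higher and 2.41% lower in Gata3-/- arrays. None of the 8 had an unadjusted p under 0.05, which 25.8% of all genes had, and in each of them the values of the genotypes overlapped, whereas in 33.6% of all genes they did not. Differences below are Gata3-/- minus Gata3+/- on the log2 scale with their standard error (SE), and levels are log2 GC-RMA intensities, in which a value of 4 was the minimum for a measured probe set. Of the 8 genes 5 had a positive and 3 a negative difference, with a median of 0.35 against -0.02 over all genes tested. The 3 negative ones were the 3 embryonic globins. A probe set's level reflects its own probes as well as the RNA, so levels of different genes are not set against each other.

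**Figure D1:**
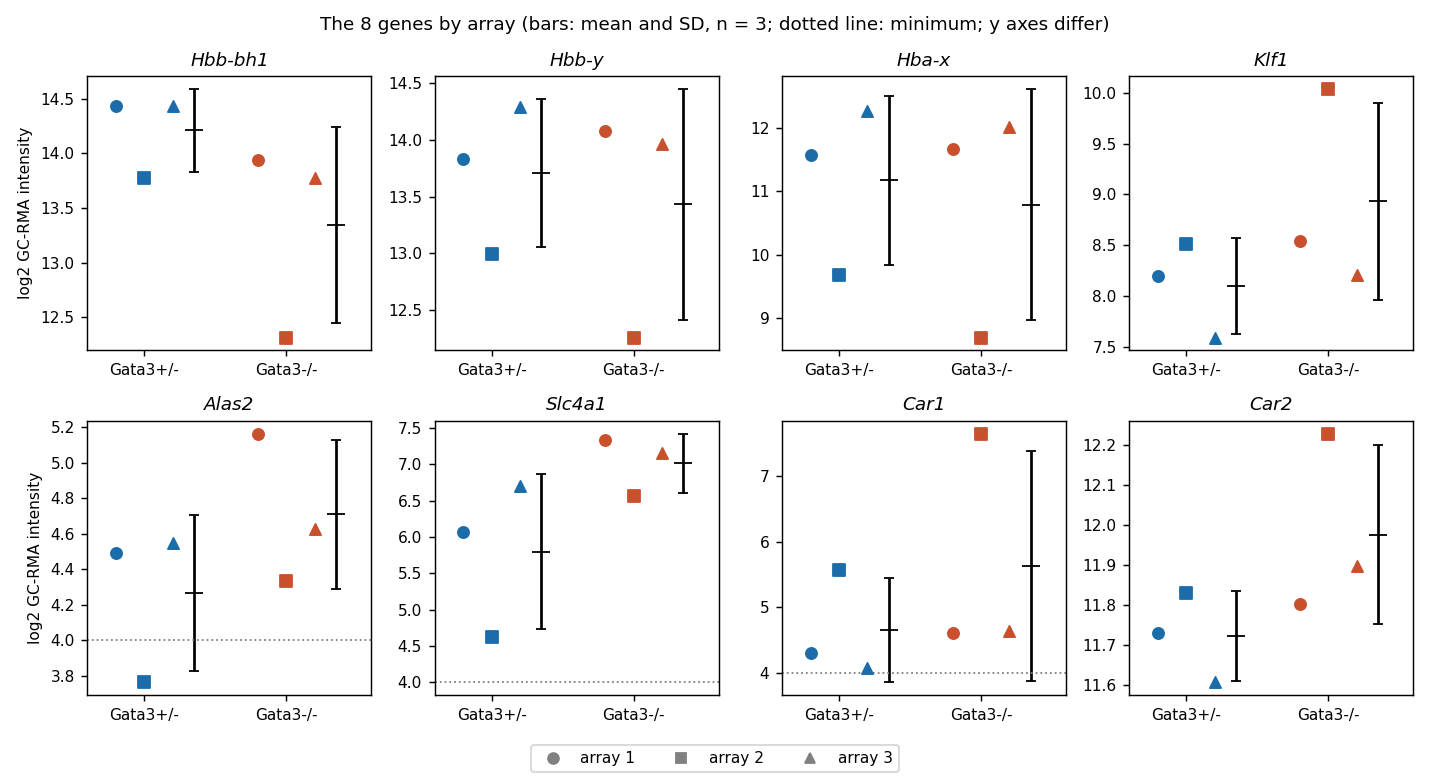
Log2 GC-RMA intensity of each of the 8 genes on the 6 arrays (points; circle, square and triangle for arrays 1, 2 and 3) with mean and SD per genotype (n = 3); y axes differ between panels and do not start at 0, and the dotted line is the minimum of 4. The squares of the Gata3-/- group are the lowest points for Hbb-bh1, Hbb-y and Hba-x and the highest for Klf1, Car1 and Car2.

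Hbb-bh1, the beta-h1 chain of primitive red cells, was measured at 14.43, 13.78 and 14.43 on Gata3+/- arrays 1, 2 and 3 and at 13.94, 12.31 and 13.77 on Gata3-/- arrays 1, 2 and 3 (probe set 1437990_x_at). Gata3-/- array 2 was far below the others, and array 2 was also the lowest of the Gata3+/- group. The means were 14.21 ± 0.38 and 13.34 ± 0.90 (SD, n = 3), a difference of -0.87 (SE 0.47, 95% interval -2.04 to 0.30, limma adjusted p = 0.337). The exact two-sided permutation test gave p = 0.2, where 0.1 is the smallest p that 3 arrays against 3 can give. The other probe sets of Hbb-bh1 had differences of -0.94 and -0.91 (adjusted p = 0.260 and 0.313). With 1 array removed at a time, the difference lay between -1.17 and -0.36, so its sign was kept while its size depended on Gata3-/- array 2.

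Hbb-y, the epsilon-y chain, was measured at 13.83, 13.00 and 14.29 on the Gata3+/- arrays and at 14.08, 12.26 and 13.96 on the Gata3-/- arrays (1436717_x_at). Array 2 was the lowest of each genotype, and the other 4 arrays lay close together with the genotypes mixed. The means were 13.71 ± 0.65 and 13.43 ± 1.02 (SD, n = 3), a difference of -0.27 (SE 0.59, 95% interval -1.73 to 1.18, limma adjusted p = 0.823, exact two-sided permutation p = 0.7). Without Gata3-/- array 2 the difference was 0.31, and without Gata3+/- array 3 it was 0.02. The other 2 probe sets had differences of -0.31 and -0.34.

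Hba-x, the zeta chain of embryonic haemoglobin, was measured at 11.58, 9.68 and 12.26 on the Gata3+/- arrays and at 11.66, 8.69 and 12.01 on the Gata3-/- arrays (1448716_at). It had the widest spread of the globins, 3.57 between its lowest and highest array, and again array 2 was the lowest of each genotype. The means were 11.17 ± 1.34 and 10.79 ± 1.82 (SD, n = 3), a difference of -0.38 (SE 1.09, limma adjusted p = 0.872, exact two-sided permutation p = 0.7). The 95% interval, from -3.09 to 2.32, allows a large difference in either direction. Without Gata3-/- array 2 the difference was 0.67, and without Gata3+/- array 3 it was 0.16.

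Adult globins are made in definitive red cells, and on these arrays their bright probe sets were annotated to several genes at once, which name no single gene and were picked with their values known. The probe set annotated to several adult beta-like globins was measured at 10.92, 10.65 and 11.17 on the Gata3+/- arrays and at 12.23, 12.00 and 11.83 on the Gata3-/- arrays. Every Gata3-/- array lay above every Gata3+/- array. It was higher in Gata3-/- arrays by 1.11 (SE 0.17, 95% interval 0.69 to 1.52, limma adjusted p = 0.0364, exact two-sided permutation p = 0.1), from 10.91 ± 0.26 to 12.02 ± 0.20 (SD, n = 3). When any 1 array was left out the difference stayed between 0.98 and 1.23 but no longer passed the threshold (adjusted p = 0.0699 to 0.116). Across the other alternatives its adjusted p ran from 0.0184 to 0.146.

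The 3 probe sets annotated to several adult alpha globins did not pass, with differences of 0.59, 0.61 and 0.64 (adjusted p = 0.361, 0.281 and 0.298). The first was measured at 12.65, 11.92 and 13.02 on the Gata3+/- arrays and at 13.52, 12.71 and 13.12 on the Gata3-/- arrays. Its Gata3-/- values lay within or above the range of the Gata3+/- values. The probe sets annotated to a single adult globin gene were dim. That of Hba-a1 stood at 2.30 and 2.31 in the 2 genotypes and that of Hbb-b2 at 3.04 and 3.09, under the minimum on every array. That of Hba-a2 stood at 3.91, 3.97 and 4.19 on the Gata3+/- arrays and at 3.66, 3.67 and 3.56 on the Gata3-/- arrays, lower in Gata3-/- without overlap, but it reached the minimum on 1 array only and was not tested. Hba-a2 and Hbb-b2 are shown as the other single-gene probe sets and were chosen with their values known. Of the other globins the 1 tested gene was Cygb, whose product cytoglobin is made in fibroblast-like cells. It stood at 7.74, 6.86 and 8.11 on the Gata3+/- arrays and at 9.88, 9.08 and 9.10 on the Gata3-/- arrays. The genotypes did not overlap, but the difference of 1.78 (SE 0.38) missed the threshold (limma adjusted p = 0.0626). Cygb passed with array weights (0.0318) and with robust eBayes on a variance trend (0.0475). It did not pass without the filter (0.178), with a block for the replicate number (0.0610) or without both arrays numbered 2 (0.157). With any 1 array left out its adjusted p was 0.0819 to 0.155.

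**Figure D2:**
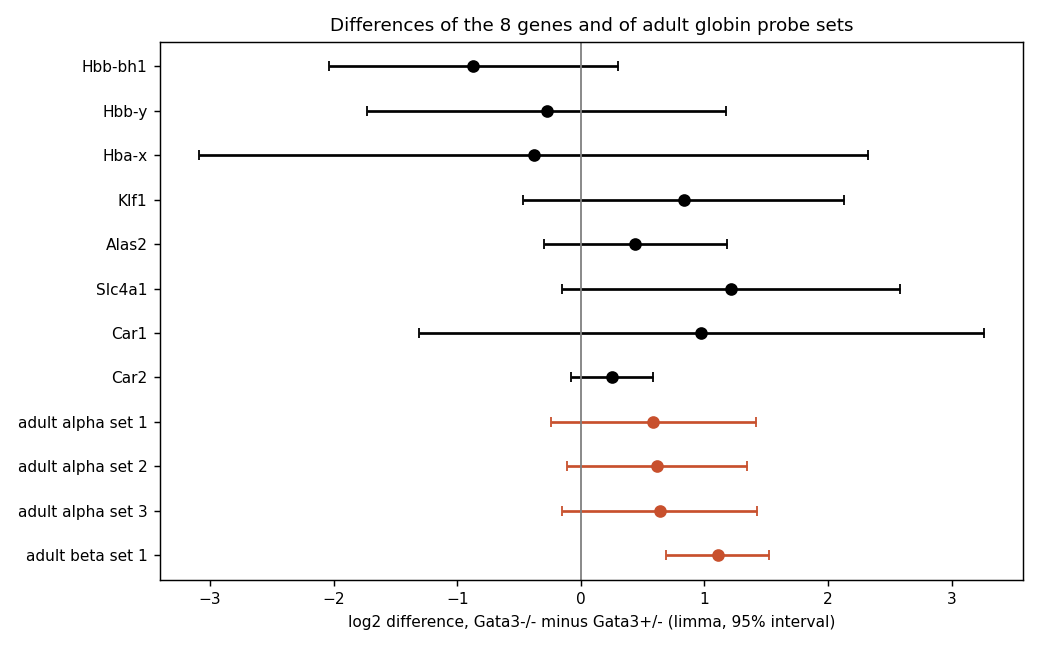
Log2 difference, Gata3-/- minus Gata3+/-, with its 95% interval from limma, for the 8 genes (black) and for the probe sets annotated to several adult alpha or beta globins (orange). The intervals of all 8 genes include 0, and that of the adult beta probe set, 0.69 to 1.52, does not.

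The globin probe sets were next set against each other within each array. Only the change of such a contrast between arrays can be read, since its level depends on the probes. These contrasts were chosen after the values were seen. The adult beta probe set minus Hbb-y was -2.91, -2.35 and -3.12 on the Gata3+/- arrays and -1.85, -0.26 and -2.13 on the Gata3-/- arrays. All 3 Gata3-/- values lay above all 3 Gata3+/- values, and that of array 2 stood far above the rest. The means differed by 1.38 (exact two-sided permutation p = 0.1, the smallest possible, and 0.133 after Benjamini-Hochberg adjustment over 4 contrasts). Without Gata3-/- array 2 the difference was 0.80.

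Against Hbb-bh1 the adult beta probe set stood at -3.51, -3.12 and -3.27 on the Gata3+/- arrays and at -1.71, -0.31 and -1.94 on the Gata3-/- arrays, again without overlap. The difference of 1.98 (exact two-sided permutation p = 0.1, adjusted 0.133) was 1.47 without Gata3-/- array 2 and 1.56 without both arrays numbered 2. The alpha-like pair behaved otherwise. The adult alpha probe set minus Hba-x was 1.07, 2.25 and 0.76 on the Gata3+/- arrays and 1.86, 4.02 and 1.11 on the Gata3-/- arrays, with overlap between the genotypes. That difference was 0.97 (exact two-sided permutation p = 0.5) and 0.12 without Gata3-/- array 2. Whether the alpha and beta contrasts differ from each other was not tested.

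The 2 embryonic beta-like genes both lie on chromosome 7. Hbb-bh1 minus Hbb-y was 0.60, 0.78 and 0.14 on the Gata3+/- arrays and -0.14, 0.05 and -0.19 on the Gata3-/- arrays. Every Gata3-/- value was below every Gata3+/- value, a difference of -0.60 (exact two-sided permutation p = 0.1, adjusted 0.133). This contrast did not depend on array 2, with values from -0.78 to -0.46 when each array was left out and -0.53 without both arrays numbered 2. Over the 9 pairs of probe sets of these genes the difference ran from -0.67 to -0.53, and in 7 pairs the genotypes did not overlap. Several of these probe sets carry the suffix _x_at, with which Affymetrix marks sets holding probes that may also bind other transcripts, so the related chains may not be fully separated.

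**Figure D3:**
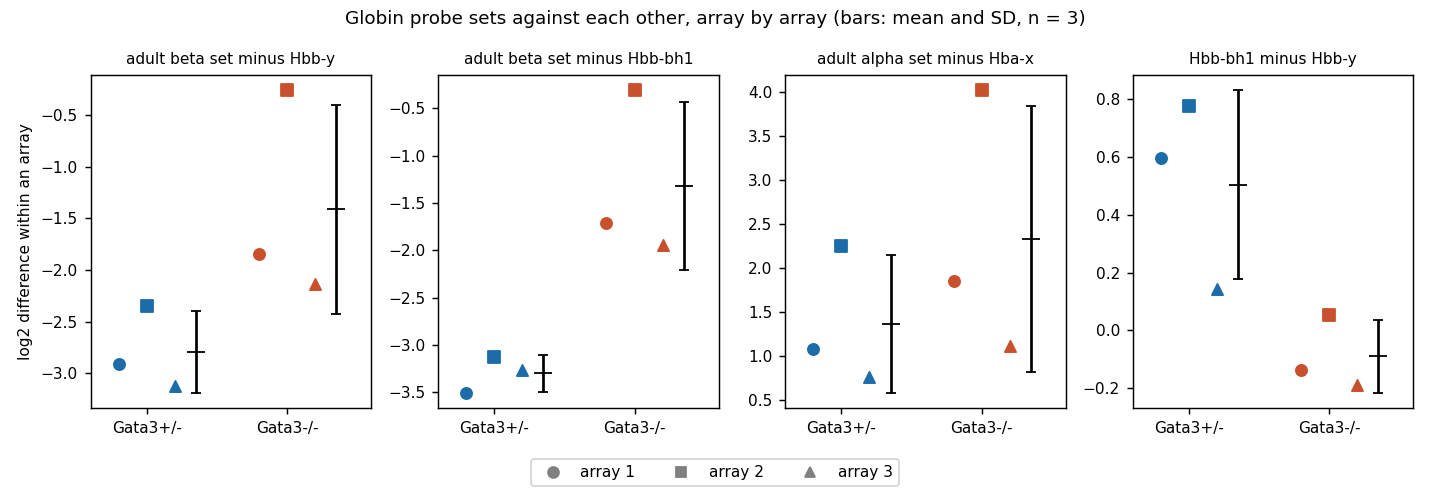
Log2 difference between 2 globin probe sets within each of the 6 arrays (points; circle, square and triangle for arrays 1, 2 and 3), with mean and SD per genotype (n = 3); y axes differ between panels. The genotypes do not overlap for the adult beta set minus Hbb-y, the adult beta set minus Hbb-bh1 and Hbb-bh1 minus Hbb-y, and they overlap for the adult alpha set minus Hba-x.

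Klf1 encodes the red cell Krüppel-like factor. It was measured at 8.19, 8.51 and 7.59 on the Gata3+/- arrays and at 8.54, 10.04 and 8.21 on the Gata3-/- arrays (1418600_at). Its highest array was Gata3-/- array 2, on which the embryonic globins were lowest, and its lowest was Gata3+/- array 3, on which Hbb-y and Hba-x were highest. The means were 8.10 ± 0.47 and 8.93 ± 0.98 (SD, n = 3), a difference of 0.83 (SE 0.53, 95% interval -0.47 to 2.13, limma adjusted p = 0.406, exact two-sided permutation p = 0.2). Without Gata3-/- array 2 the difference was 0.28.

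Other transcription factors of red cell development were measured in 17 of 18 cases. Of these 0 were higher and 1 lower in Gata3-/- arrays, with a median difference of -0.03. The lower one was Klf3, a repressor of the same family that is itself a KLF1 target. It stood at 11.41, 11.64 and 11.50 on the Gata3+/- arrays and at 10.71, 10.65 and 10.77 on the Gata3-/- arrays, a difference of -0.81 (SE 0.09, limma adjusted p = 0.0281). The genotypes were well apart, yet with any 1 array left out the adjusted p was 0.0699 to 0.105. Gata1, the master regulator of red cells, was measured at 9.04, 9.05 and 8.77 on the Gata3+/- arrays and at 8.73, 9.37 and 8.53 on the Gata3-/- arrays, with a difference of -0.07. Its partner Tal1 had a difference of -0.24 and Gata2, a factor of progenitors, one of 0.50, highest at 9.21 on Gata3-/- array 2. Of the 17 factors 9 were highest on that array, as were 21% of all genes tested.

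Alas2 encodes the red cell form of the first and rate-limiting enzyme of haem synthesis. It was dim, at 4.49, 3.76 and 4.55 on the Gata3+/- arrays and 5.16, 4.33 and 4.63 on the Gata3-/- arrays (1451675_a_at), with Gata3+/- array 2 under the minimum. The difference was 0.44 (SE 0.30, 95% interval -0.30 to 1.18, limma adjusted p = 0.442, exact two-sided permutation p = 0.4). It was 0.19 without Gata3+/- array 2 and 0.21 without Gata3-/- array 1. Of 7 tested genes of haem synthesis none passed, and their median difference was 0.02. The housekeeping form Alas1 stood at 9.74 ± 0.30 and 9.95 ± 0.27, and the later enzymes Urod and Alad had differences of -0.06 and 0.02. In each of these 4 enzymes the genotypes overlapped. They did not overlap for Ppox and Fech, the last enzymes of the pathway, named after their values were seen, whose differences were 0.18 and -0.19 (adjusted p = 0.191 and 0.281).

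Of 10 tested genes of iron uptake and storage none passed, with a median of 0.07. Tfrc, the transferrin receptor through which erythroblasts take up iron, stood at 11.38, 11.75 and 11.41 on the Gata3+/- arrays and at 12.27, 12.65 and 12.05 on the Gata3-/- arrays. The genotypes did not overlap, but the difference of 0.81 (SE 0.19) missed the threshold (limma adjusted p = 0.0702). Tfrc passed with array weights (0.0354) and with a block for the replicate number (0.0467). It did not pass without the filter (0.187) or with its probe sets averaged (0.270). With any 1 array left out its adjusted p was 0.110 to 0.190. Fth1, the ferritin heavy chain, had a difference of 0.06.

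Slc4a1 encodes band 3, the anion exchanger that anchors the red cell skeleton. It was measured at 6.07, 4.63 and 6.70 on the Gata3+/- arrays and at 7.34, 6.56 and 7.15 on the Gata3-/- arrays (1434502_x_at). Only the highest Gata3+/- value reached into the Gata3-/- range. The means were 5.80 ± 1.06 and 7.02 ± 0.41 (SD, n = 3), a difference of 1.22 (SE 0.55, 95% interval -0.15 to 2.58, limma adjusted p = 0.260, exact two-sided permutation p = 0.2). Without Gata3+/- array 2 it was 0.63. A second probe set gave 5.73, 5.28 and 6.71 against 6.65, 6.11 and 6.87, a difference of 0.64 (adjusted p = 0.410), and the third stood at 2.18 in both genotypes, under the minimum on every array. Slc4a1 lies on chromosome 11, where the 884 other genes tested had a median difference of 0.33 and 88.3% were positive. Hba-x, Cygb and the adult alpha globins are on the same chromosome. The other 6 of the 8 genes lie on chromosomes 3, 7, 8 and X, where the medians lay between -0.06 and -0.03. The part of the chromosome-wide shift in the values of these genes was not tested.

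Among the other genes of the red cell membrane and skeleton, 15 of 18 had a probe set of their own, 8 were tested and 0 passed, with a median of 0.31. The glucose transporter gene Slc2a1 and the glycophorin gene Gypc had differences of 0.08 and 0.13. Kel, a blood group antigen of red cells chosen here after its values were seen, stood at 5.36, 5.09 and 4.97 on the Gata3+/- arrays and at 5.88, 7.83 and 6.31 on the Gata3-/- arrays. All Gata3-/- values were the higher, with a difference of 1.54 that did not pass (SE 0.51, limma adjusted p = 0.147) and was 0.96 without Gata3-/- array 2. At the other end of the list Aqp1, the water channel gene, and Tmod1, the tropomodulin gene, had differences of -1.02 and -0.26 (adjusted p = 0.543 and 0.359) and were chosen likewise. Ahsp and Hbb-b1, for which no probe set of their own was used, were not analysed here.

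Car1 and Car2 encode carbonic anhydrases, enzymes that let red cells carry carbon dioxide as bicarbonate, and they lie near each other on chromosome 3. Car1 was measured at 4.31, 5.56 and 4.08 on the Gata3+/- arrays and at 4.61, 7.64 and 4.63 on the Gata3-/- arrays (1416193_at). The arrays numbered 2 held its highest value in each genotype, and the others lay just above the minimum. The difference was 0.98 (SE 0.92, 95% interval -1.31 to 3.26, limma adjusted p = 0.587, exact two-sided permutation p = 0.5), and without Gata3-/- array 2 it was -0.030.

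Car2 was measured at 11.73, 11.83 and 11.61 on the Gata3+/- arrays and at 11.80, 12.23 and 11.90 on the Gata3-/- arrays (1448752_at). It was the steadiest of the 8 genes, with 0.62 between its lowest and highest array, and again Gata3-/- array 2 was the highest. The difference was 0.25 (SE 0.14, 95% interval -0.08 to 0.59, limma adjusted p = 0.329, exact two-sided permutation p = 0.2), and without Gata3-/- array 2 it was 0.13. Of the 16 genes listed for the family, 11 never reached the minimum. The 4 tested all had positive differences, none past the threshold. Car13, which lies beside Car1, had a difference of 0.60 (adjusted p = 0.149). Car8, chosen after its values were seen, had one of 0.93 (adjusted p = 0.450), with 7.72 on Gata3-/- array 2.

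The erythropoietin receptor gene Epor, through which red cell precursors receive their survival signal, stood at 7.30, 7.29 and 7.27 on the Gata3+/- arrays and at 7.08, 7.93 and 6.32 on the Gata3-/- arrays. The Gata3+/- values were nearly equal and the Gata3-/- values lay on both sides of them, with a difference of -0.18. Hemgn, a nuclear protein of erythroid progenitors, was measured at 9.24, 9.00 and 8.92 and at 8.42, 8.31 and 8.18 on the arrays of the 2 genotypes, and it was lower in Gata3-/- arrays (difference -0.75, SE 0.12, limma adjusted p = 0.0373, 0.0782 without the filter and 0.0734 to 0.111 with any 1 array left out). It was the only 1 of 10 tested late erythroid genes to pass, and they had 5 positive and 5 negative differences. Over the erythroid lists together, without the 8 genes and the carbonic anhydrase family, 53 of 84 listed genes were tested. Of these 0 were higher and 2 lower, Klf3 and Hemgn, with a median of 0.04. Over all genes tested 5.27% passed in either direction.

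**Figure D4:**
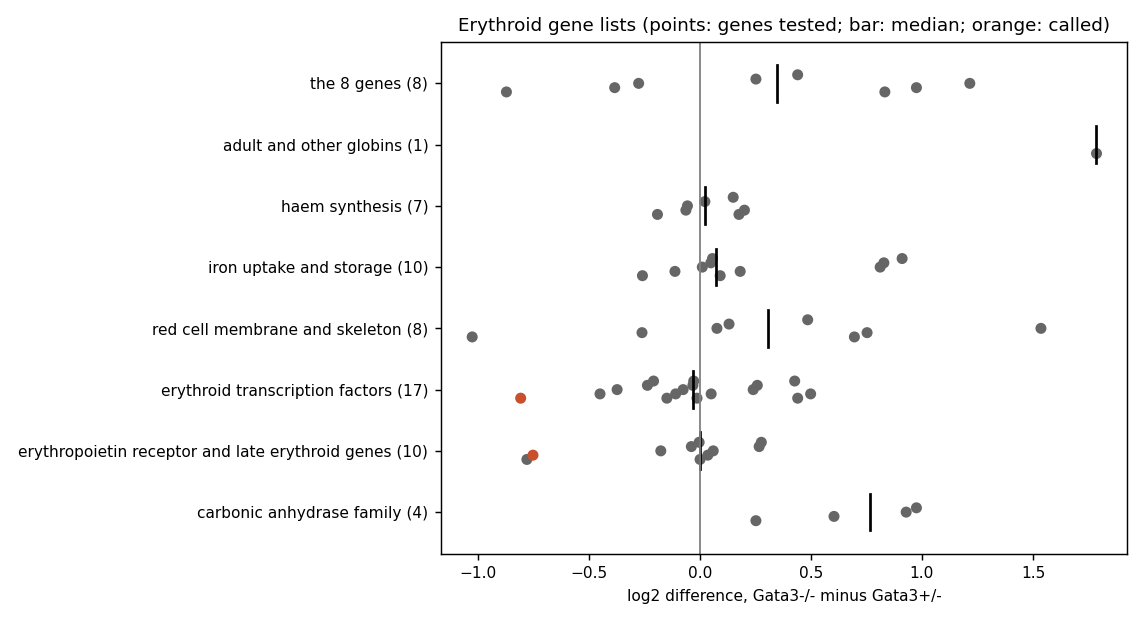
Log2 difference, Gata3-/- minus Gata3+/-, of each tested gene (points) in the erythroid lists, with the list's median as a bar and the number of genes tested in brackets; orange points passed an adjusted p under 0.05 in limma. The 2 orange points are Klf3 and Hemgn, both lower in Gata3-/- arrays; Car1 and Car2 also count in the carbonic anhydrase family.

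In all 8 genes the arrays of at least 1 genotype spanned a wider range than the distance between the genotype means. Hbb-y and Hba-x followed each other with a Pearson correlation of 0.99 over the 6 arrays, and Hbb-bh1 and Hbb-y with one of 0.87. Klf1 and Car1 followed each other (0.95), and Hbb-bh1 ran against both (-0.95 with Klf1 and -0.97 with Car1). Alas2 and Slc4a1 formed a pair of their own (0.91), with their lowest values on Gata3+/- array 2. Without both arrays numbered 2 the correlation of Hbb-bh1 with Hbb-y was 0.17 and with Klf1 -0.62, whereas Klf1 and Car1 kept 0.87. All 6 points of each correlation share the same arrays, and they are given as a description.

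Genes of the OP9 stroma also differed between arrays. The mean level of the 16 tested OP9 stromal genes, of 20 listed, was 9.07, 7.42 and 9.14 on the Gata3+/- arrays and 7.99, 6.91 and 9.03 on the Gata3-/- arrays, and their summed level ran from 12.39 to 14.15 and from 12.05 to 14.10. Both arrays numbered 2 were the lowest. Of the other genes listed 3 never reached the minimum, and the collagen gene Col1a2 and the matrix gene Sparc, the brightest, had differences of -0.68 and -0.39. Over the 6 arrays this mean correlated with Hbb-bh1, Hbb-y and Hba-x by 0.81, 0.87 and 0.92, with Klf1, Car1 and Car2 by -0.85, -0.88 and -0.75 and with Alas2 and Slc4a1 by 0.37 and 0.34. Over the 4 arrays left without both numbered 2 the values in the same order were 0.46, -0.06 and 0.49, then -0.74, -0.58 and -0.31, then -0.99 and -0.63. The correlation of the embryonic globins was thus weaker or near 0 without the arrays numbered 2, and that of Alas2 and Slc4a1 changed sign. The part of stromal cells in the levels of the 8 genes was not tested.

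**Figure D5:**
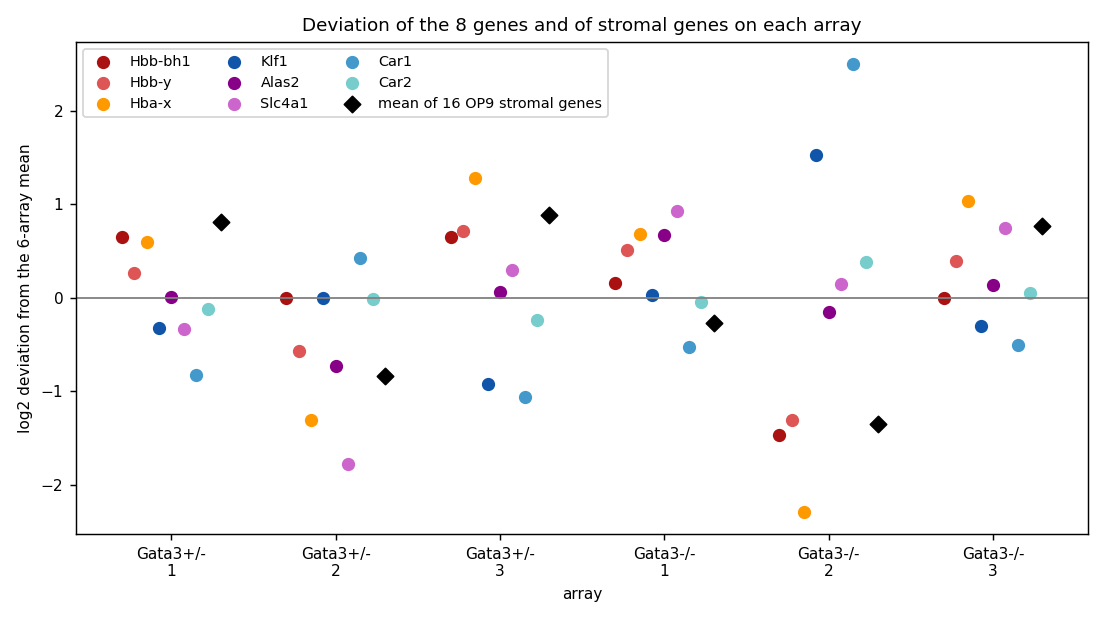
Log2 deviation of each of the 8 genes (points) and of the mean of 16 OP9 stromal genes (diamonds) from its own mean over the 6 arrays, by array. On Gata3-/- array 2 Hbb-bh1, Hbb-y, Hba-x and the stromal mean are at their lowest while Klf1, Car1 and Car2 are at their highest.

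Markers of other cells the cultures could hold also moved with array or genotype. All 12 tested genes of megakaryocytes and platelets, the lineage closest to red cells, had negative differences (median -0.37), 9 of them were lowest on Gata3-/- array 2, as were 17.9% of all genes tested, and Clec1b, a platelet receptor, was lower (difference -1.07, SE 0.19, adjusted p = 0.0462). All 5 tested mast cell and basophil genes were highest on Gata3-/- array 2, as were 21% of all genes tested. That array also had the most Klf1 and Car1. The 5 include Gata2 and Car8, which are also counted in lists above. Among the 5 genes Kit, the stem cell factor receptor that early erythroid progenitors also carry, was higher in Gata3-/- arrays by 0.96 (SE 0.18, adjusted p = 0.0477). The summed level of these 5 genes was 10.52 to 11.16 on the Gata3+/- arrays and 11.40 to 12.24 on the Gata3-/- arrays. Kit was the brightest of the 5 on every array, so this sum mostly repeats Kit. Of the 12 genes on this list 5 never reached the minimum, namely Fcer1a, Ms4a2, Mcpt8, Tpsb2 and Cma1. Mcpt4 reached it only on Gata3-/- array 2, at 4.26. All 12 macrophage markers were measured, with a summed level of 16.74 to 16.99 and 16.32 to 16.57. Of their differences 10 were negative and 2 positive, with a median of -0.38. An unadjusted limma p under 0.05 was found for 9 of the 12 and for 25.8% of all genes. Fcgr1, an antibody receptor, was lower (difference -0.70, SE 0.12, adjusted p = 0.0431). With any 1 array left out none of Clec1b, Kit and Fcgr1 passed in limma, nor did they without the filter (adjusted p = 0.0951 to 0.122). The brightest genes of haem recycling macrophages, the iron exporter gene Slc40a1 and the biliverdin reductase gene Blvra, had differences of 0.91 and -0.17 and did not pass. The part of these cells in the levels of the 8 genes was not tested.

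Of 15 T-lineage genes with a probe set of their own, all 15 stayed under the minimum on every array. The name T-cell progenitor is thus not borne out by these genes, and the markers of the sort are not given. Gata3 itself stood at 5.39, 6.40 and 5.86 on the Gata3+/- arrays and at 5.87, 6.44 and 5.48 on the Gata3-/- arrays, and since the disrupted part is not stated this probe set checks nothing. Of 15 listed genes of yolk sac endoderm, which surrounds the first blood islands, 2 were tested and 11 never reached the minimum. Afp, a secreted carrier protein of this endoderm, had a difference of 1.06 (adjusted p = 0.0533), and Dab2 one of -0.04. Of 12 listed genes of endothelium and its blood-forming precursors 6 were tested. Flt1, a receptor for vascular growth factors, stood at 5.26, 6.74 and 5.48 on the Gata3+/- arrays and under the minimum on all 3 Gata3-/- arrays (limma adjusted p = 0.0356, and 0.0926 without the filter). It passed the filter only through the Gata3+/- arrays, so its call had to come with a difference and is not counted as support. Of the pluripotency list only Klf4 and Dppa5a were tested, with differences of -0.43 and -0.11, while 6 of its 10 genes never reached the minimum.

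The genes whose levels most resembled each of the 8 were found among the other 10301 genes tested, by Pearson correlation over the 6 arrays and as a description only. For Hbb-y they were Pdgfb (0.990), Hba-x (0.988) and Dpys (0.988), or 0.741, 0.758 and 0.906 without both arrays numbered 2. Hba-x was most like Dtx4 (0.994), Fxyd5 (0.993) and Fn1 (0.991), or 0.997, 0.918 and 0.735 without those arrays, and Fn1, the fibronectin gene, is one of the stromal genes. Hbb-bh1 was most like Sipa1l2, Prune2 and Rasgrp3, all at 0.991 or above and at 0.985 or above without both arrays numbered 2. Klf1 was nearest to Pus3 (0.999), Actr5 (0.996) and Garem1 (0.992), Car1 to Reps1, Bend5 and Trim21 and Car2 to Ube2g1, Acyp1 and Gm13012, all at 0.992 or above. Without both arrays numbered 2 those of Car1 were 0.96, 0.91 and 0.87, and those of Klf1 and Car2 stayed at 0.967 or above. Alas2 resembled Bend6, Rrad and Fbxo6 (0.993, 0.992 and 0.986). Slc4a1 resembled Mapkapk3, Plet1 and Stap2, at 0.994 or above, and of these Plet1 ran from 2.47 on Gata3+/- array 2 to 13.07 on Gata3-/- array 1.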

How the data were processed

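RNA of sorted cells was measured on 6 Affymetrix arrays, 3 per genotype, with groups taken from the titles. The values are linear intensities for 45101 probe sets, made with GC-RMA per the labels and deposited by the authors; the submitters' processing notes name GCOS. No version, setting or build is given in the sources used here. GC-RMA models background from probe sequence, so dim probe sets form a floor. The number of arrays limits the precision.

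Here log2 was taken with no further normalization. The 64 control probe sets were left out, and probe sets with a log2 of at least 4 (an intensity of 16) on at least 3 of 6 arrays were tested with limma 3.58.1 in R 4.3.3 (lmFit and eBayes, two-sided), with Benjamini-Hochberg adjustment over all of them. Between 19977 and 20124 probe sets per array lay at or above it. The platform annotation gave 1 symbol to 34945 probe sets, several to 932, and did not list 9160. Promoters came from RefSeq (GRCm38.p6). Plots used matplotlib 3.10.9 in Python 3.11.15. The fit was tested on simulated data.

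The genes and lists were chosen with earlier results of these data known. Named are the 8 genes with all their probe sets, up to 4 passing genes of each list (otherwise its 2 brightest), Gata1, Tal1, Epor, Tfrc, Hbb-b1, Hba-a1, Ahsp, Gata2, Alas1 and Gata3, and the 3 genes most like each of the 8; 1 further gene of this rule is not reported here. Others are said to be chosen after their values were seen, and the dim mast cell and basophil genes were named likewise. Alternatives were other filters, normalizations, a pseudocount of 16, variance models, a replicate block, averaged probe sets and fits with arrays left out.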

Additional observations from a re-analysis of the deposited data

How the results depend on the processing

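None of the 8 genes passed in limma under any of 16 alternatives (126 values, 0 past the threshold and 5 of opposite sign). At an unadjusted p under 0.05 there were 4 with the replicate block, 1 with array weights, 1 without Gata3+/- array 3, 3 without both arrays numbered 2 and 0 under the rest. Leaving out each array, the difference of Hbb-y ran from -0.63 to 0.31, of Hba-x from -1.13 to 0.67 and of Car1 from -0.030 to 1.48. The cause was not tested. The median difference of the 8 genes was 0.35 in the main fit. Where all 8 had a value it ran from 0.25 (without Gata3+/- array 2) to 0.41 (without Gata3+/- array 1), beside an SD of 0.40 between arrays. It was -0.01 under the stricter filter (a log2 of 6), where Alas2 and Car1 have no value. Of all genes 543 were called; the counts were 98 without a filter, 824 with trend and robust eBayes, 1224 with array weights, 3 without both arrays numbered 2 and 0 to 4 with each array left out, fits that hold fewer arrays. With the replicate block 298 were called. Deviations of same-numbered arrays correlated by 0.005, 0.695 and 0.429 for arrays 1, 2 and 3. For Gata3+/- arrays 2 and 3 the closest Gata3-/- array was the one of the same number. Gata3+/- array 1 was closer to Gata3-/- array 3 (0.424). The labels name no pairing, so whether same-numbered arrays belong together is not known. The block brought no call among the 8 genes, where the lowest adjusted p was 0.112 (Slc4a1). With it Tfrc passed (0.0467), and Kit (0.0666), Clec1b (0.0532) and Flt1 (0.0539) did not. Of the 53 other erythroid genes 2 were called, 1 without a filter, 5 with array weights, 0 without both arrays numbered 2 and 0 with each array left out. The adult beta-globin probe set kept its direction but missed the threshold without a filter (1.11, adjusted p = 0.0868), with the replicate block (1.11, 0.0601), without both arrays numbered 2 (0.99, 0.146) and with each array left out (0.98 to 1.23). These alternatives for it were chosen after seeing the data, and it has no value with averaged probe sets. With 3 arrays per genotype the exact permutation test cannot go below 0.1, and Alas2 and most Car1 values lie near the minimum of 4.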
